A study of Mus musculus with 2 samples.

Results

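The Mir103 and Mir107 family of the mouse consists of 3 microRNA hairpins, Mir103-1, Mir103-2 and Mir107, each carried in an intron of a pantothenate kinase gene. They were taken by gene identifier from tables of 1973 microRNA gene rows, and all 3 had a row. The tables come from microRNA sequencing of hindbrain dissected from healthy embryos of strain B6NCrl at embryonic day 13.5, with males and females pooled. The 2 libraries form 1 group and are named replicate 1 and replicate 2 after their biological replicate numbers. Their labels carry 1 donor identifier and separate biosample identifiers, with no word on litters. P-values between them set the difference of these 2 libraries against counting error, and that difference may be partly technical. With 1 tissue at 1 stage, the data give levels and a comparison of 2 libraries, and no comparison of conditions.

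Pantothenate kinases, encoded by the Pank genes, catalyse the first committed step of coenzyme A synthesis. The microRNAs in their introns are cut from the host transcript, trimmed by Drosha and Dicer, and loaded into Argonaute, where the seed near the 5′ end (bases 2 to 8) pairs with target messages. As background, miR-103 and miR-107 are known to repress the Dicer message itself, and they are linked to insulin sensitivity in liver and fat. In the zebrafish hindbrain, miR-107 is known to act through Dicer on the amount of miR-9 and on neurogenesis.

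The mature sequences are shown first because they differ in so few places that this limits which reads can be given to which gene. Sequences are from RefSeq on GRCm38.p6, where all 3 genes matched, and capitals mark the seed. The 3p arms, which lie at bases 52 to 74 of each hairpin, are:
miR-103-3p (identical in Mir103-1 and Mir103-2): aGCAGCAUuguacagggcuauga
miR-107-3p (Mir107): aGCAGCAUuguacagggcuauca
The 5p arms, at bases 15 to 37, are:
miR-103-1-5p: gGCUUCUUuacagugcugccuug
miR-103-2-5p: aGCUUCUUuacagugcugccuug
miR-107-5p: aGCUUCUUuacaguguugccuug

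All 3 hairpins carried the same 3p seed, and no other mature sequence in the RefSeq table had it. Counted from 1 at the 5′ end, with the base of the first-named arm first, miR-103-3p and miR-107-3p differed by G22C alone. The 5p arms of Mir103-1 and Mir103-2 differed by G1A, and those of Mir103-2 and Mir107 by C16U. Over the whole hairpins, of 86, 86 and 87 nt, Mir103-1 and Mir103-2 were identical at 80.2% of alignment columns, Mir103-1 and Mir107 at 80.5%, and Mir103-2 and Mir107 at 83.9%. The whole hairpins, with both arms in capitals, show that the differences gather in the loop and at the ends:
Mir103-1: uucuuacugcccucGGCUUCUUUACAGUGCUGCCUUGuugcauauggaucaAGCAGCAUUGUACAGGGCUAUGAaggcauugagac
Mir103-2: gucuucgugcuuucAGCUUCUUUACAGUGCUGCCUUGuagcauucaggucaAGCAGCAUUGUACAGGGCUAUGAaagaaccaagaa
Mir107: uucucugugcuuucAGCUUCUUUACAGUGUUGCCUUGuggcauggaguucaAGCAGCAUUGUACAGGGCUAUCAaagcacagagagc

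The loci share their place in the host gene. Mir103-1 (ENSMUSG00000065553.1) lay at chr11:35782396-35782481 on the plus strand, in an intron of Pank3. Mir103-2 (ENSMUSG00000065563.1) lay at chr2:131288052-131288137 on the plus strand, in an intron of Pank2. Mir107 (ENSMUSG00000065594.1) lay at chr19:34820687-34820773 on the minus strand, in an intron of Pank1, with all coordinates on GRCm38 (mm10). In the principal transcript of each host the hairpin was on the host's strand in intron 5 of 6. That intron falls between whole codons in all 3 genes, with 936 coding bases before it in Pank1 and Pank3 and 1155 in Pank2. After it came 174 coding bases in Pank2 and Pank3 and 183 in Pank1. The introns themselves differed in length, at 1740 bases in Pank3, 5801 in Pank2 and 7282 in Pank1. The hairpins began 688, 454 and 326 bases after the upstream exon, in Mir103-1, Mir103-2 and Mir107 respectively. Predicted folding energies were -35.8 kcal/mol for Mir103-1, -31.8 for Mir103-2 and -41.2 for Mir107, around a median of -37.2 over the 356 hairpins counted as detected below.

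The libraries held 3006571 and 4508244 reads on the annotated strand of microRNA genes, in replicates 1 and 2. A level in CPM is a gene's share of those reads times 1000000, and a gene with at least 10 counts in both libraries was called detected, as were 356 genes. Reads that map to several places, 33.9% and 34.5% of all reads, had been set aside in the deposited tables and are in no gene row. Among the tissue markers, Mir10a and Mir10b, which mark the Hox-expressing axial level, held 12.1% of the counts, and the neuronal Mir137 had 6207 ± 105 CPM (SD, n = 2). The 3 Mir124a copies, known as neuronal, were below the detection limit, with 2 to 23 counts of reads placed at 1 locus. Of 5 measured muscle markers, Mir1a-1 and both Mir133a copies had 0 counts in both libraries, while Mir206 (98 and 289 counts) and Mir208b (302 and 80 counts) were detected. Mir124a, Mir133a and Mir1a-1 are numbered copies, and any reads shared between copies are among those set aside. Their low or 0 counts therefore do not show absence.

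Mir107 supplied nearly all reads counted for the family. It had 5303 counts in replicate 1 and 8282 in replicate 2, which is 1764 CPM (exact Poisson 95% interval 1717 to 1812) and 1837 CPM (1798 to 1877). The mean was 1800 ± 51.8 CPM (SD, n = 2), or 0.180% of the counts. Mir107 was thus the 74th most abundant of the 356 detected genes, and it was the 29th of the 138 that lie in introns of protein-coding genes. Such intervals cover counting error only, because amplified reads without molecular identifiers are not independent molecules.

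Mir103-2 had 170 counts in replicate 1 and 263 in replicate 2, or 56.5 CPM (48.4 to 65.7) and 58.3 CPM (51.5 to 65.8). Its mean of 57.4 ± 1.27 CPM (SD, n = 2) put it below 236 of the detected genes. Mir103-1 had 13 and 22 counts, or 4.32 CPM (2.30 to 7.39) and 4.88 CPM (3.06 to 7.39). Its mean was 4.60 ± 0.393 CPM (SD, n = 2), just above the detection limit, with 16 detected genes lower. The order Mir107, Mir103-2, Mir103-1 was the same in both libraries, and no interval of one hairpin overlapped that of another. The hairpins are of nearly the same length, and these levels are counted reads per hairpin. They cannot be read as amounts of the microRNAs, because the hairpins differ in which reads can be placed at 1 locus. No read was counted on the opposite strand of any of the 3 genes in either library.

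**Figure D1:**
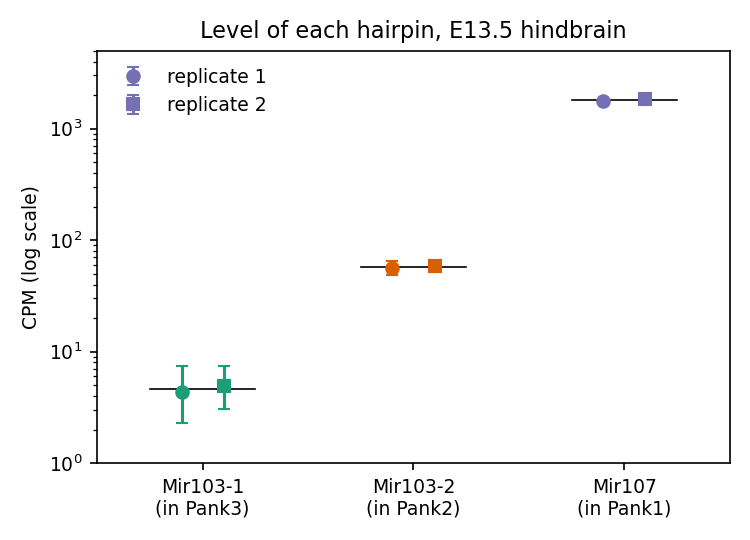
CPM on a log axis for the 3 hairpins, with replicate 1 as circles, replicate 2 as squares, exact Poisson 95% intervals as bars and the mean as a horizontal line. Mir107 lies near 1800 CPM, Mir103-2 near 57.4 and Mir103-1 near 4.60, and the replicates of each hairpin have overlapping intervals.

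The make-up of the family differed by less than counting error between the libraries. Mir107 held 96.66% of the family's counts in replicate 1 (exact Clopper-Pearson 95% interval 96.2 to 97.1) and 96.67% in replicate 2 (96.3 to 97.0). Mir103-2 held 3.10% and 3.07%, and Mir103-1 held 0.237% and 0.257%. Mir107 exceeded Mir103-2 by a factor of 31.2 in replicate 1 (exact binomial 95% interval 26.8 to 36.6) and 31.5 in replicate 2 (27.8 to 35.7). Mir103-2 exceeded Mir103-1 by 13.1 (7.44 to 25.1) and 12.0 (7.73 to 19.4). Between the libraries, neither the split of Mir107 against both Mir103 copies (odds ratio 0.997) nor that of Mir103-2 against Mir103-1 (odds ratio 1.09) differed detectably, with two-sided Fisher's exact p = 1.00 and p = 0.859, and 1.00 for both after adjustment over the 2 comparisons.

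These levels rest on reads that could be placed at 1 locus, and the sequences above bear on which reads those are. What follows uses exact matches to annotated hairpins only. The rest of the genome was not searched, and how the deposited alignment treated mismatches and read ends is not known here. Compared with the 1894 hairpins that have a sequence, a read that starts at the first base of the 3p arm and runs for 18 to 21 nt is held by all 3 members. At 22 to 24 nt such a read of miR-103-3p is held by both Mir103 hairpins, and only from 25 nt, with the next bases of the hairpin, by 1 of them. For miR-107-3p the read is held by Mir107 alone from 22 nt on. Each of the 5p arms, read from its first base, was held by 1 hairpin from 18 nt, the shortest length tried. The 5p arms of the Mir103 hairpins differ only at that first base, so a read that starts after it can be held by both. The labels give a size range below 30 for the libraries. The tables do not give read lengths or arms, so the share of each arm in a hairpin's counts was not analysed here.

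By stretches of 20 nt, the members shared sequence with each other and with no other hairpin. Mir103-1 shared 12 of its 67 stretches, Mir103-2 16 of 67 and Mir107 9 of 68. The longest run in common was 27 nt between the Mir103 hairpins and 24 nt between either of them and Mir107, beginning at base 49 in each. All 3 values are therefore uncertain: reads of the shared run are among the 2080061 and 3270252 multimapping reads to an extent that was not tested. The counted reads of the Mir103 hairpins cannot be taken as the amount of miR-103-3p, the form usually taken as the main product.

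**Figure D2:**
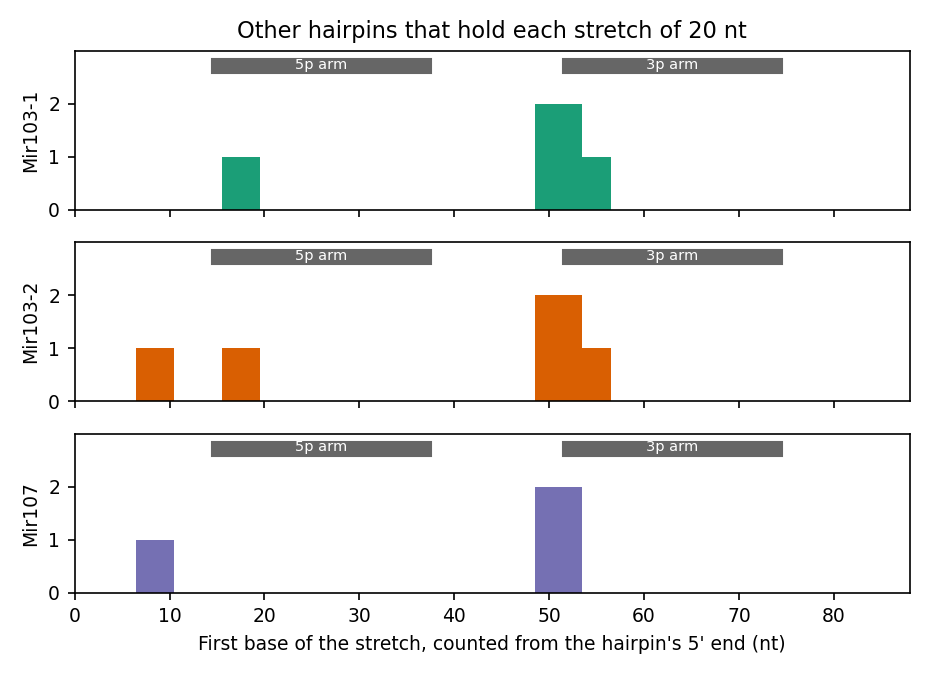
Number of other hairpins that hold each stretch of 20 nt, by the first base of the stretch along Mir103-1, Mir103-2 and Mir107, with the arms as grey boxes. Stretches that begin at bases 49 to 53 are held by both other members, and in the Mir103 hairpins those at 54 to 56 by 1 other. Stretches at 16 to 19 in the Mir103 hairpins, and at 7 to 10 in Mir103-2 and Mir107, are also held by 1 other.

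The last bases of the 3p arm place Mir107 and the Mir103 copies in different classes. Of 916 hairpins with a RefSeq mature sequence, 815 had no listed arm that is found whole in another measured hairpin, Mir107 among them. Some hairpins, such as Mirlet7a-2, have only 1 arm listed, and an unlisted arm could be shared. When the last 2 bases of each arm were left out, 10 of these 815 came to share an arm. Of those 10, Mir107 was the 1 detected hairpin. Both Mir103 hairpins fell in the class with 1 of 2 arms shared, in which 34 of 55 hairpins were detected with a median of 225 CPM. Mir103-2 was the 25th and Mir103-1 the 34th, the lowest, of those 34. In the class with no shared arm, 283 hairpins were detected with a median of 157 CPM, and Mir107 was the 65th.

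Many microRNAs are made from copies numbered as Mir103-1 and Mir103-2 are. Of 45 such microRNAs, 17 had all copies detected. Between their highest and lowest copy the ratio of mean CPM had a median of 1.94, and the lowest was 1.14, for Mir125b. Among these 17, the Mir103 copies had the fourth highest ratio, at 12.5, after Mir181b (ratios of 96.1 and 121 in replicates 1 and 2), Mir181a at 23.9 and Mir92 at 19.5. Requiring every copy to be detected leaves out more uneven microRNAs: Mir9-3 exceeded Mir9-2 by 176 and 186 in replicates 1 and 2, and Mir194-2 had 169 and 277 counts against 2 and 1 for Mir194-1. The summed level of the Mir103 copies, 62.0 CPM, was low for the group, the 17th of the 22 with a detected copy, which had a median of 554 CPM. The copies of Mir26a, likewise in introns of a paralogous gene family, had 22.6 and 4.82 CPM. These ratios are descriptions with no test, and copies that share an arm are uncertain in the same way as the Mir103 copies.

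**Figure D3:**
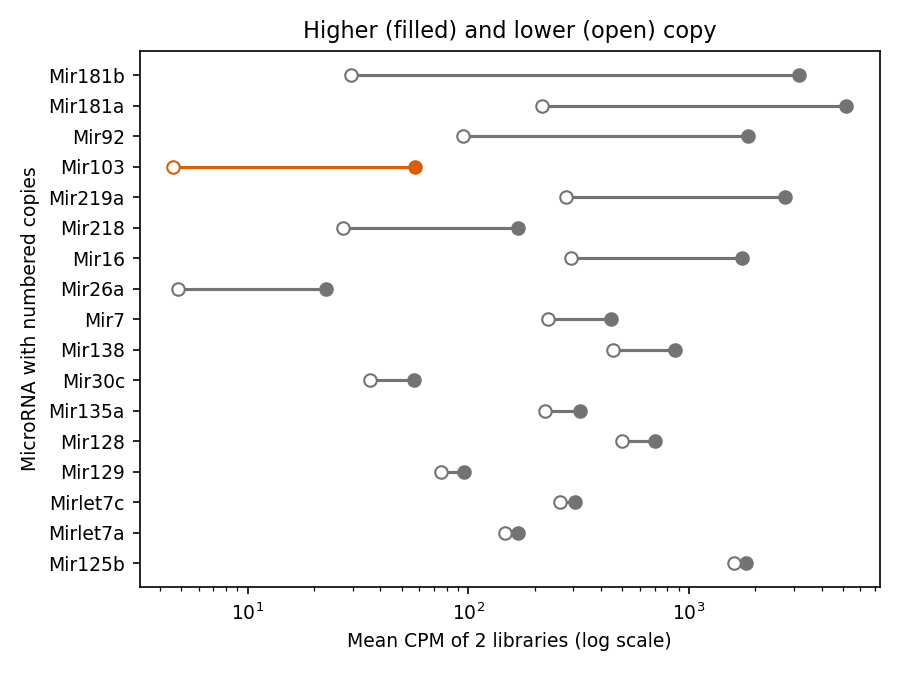
Mean CPM on a log axis of the highest (filled) and lowest (open) copy of the 17 microRNAs with all numbered copies detected, sorted by their ratio. Mir103, in orange, spans 57.4 to 4.60 CPM and is the fourth from the top.

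The nearest relatives of the family by seed are the mir-15/16 microRNAs, which restrain cell cycle genes and whose seed is shifted by 1 base. Representative arms, with bases 2 to 8 in capitals, show the shared GCAGCA core:
miR-16-5p: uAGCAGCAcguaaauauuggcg
miR-15b-5p: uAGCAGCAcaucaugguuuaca
miR-322-5p: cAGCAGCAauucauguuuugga
Mir503 is grouped with them here but does not carry the whole shifted seed, which 6 detected hairpins did. Of 8 measured genes of this group, Mir503 included, 7 were detected, with a summed level of 14130 ± 384 CPM (SD, n = 2) against 1862 ± 53.5 CPM for the Mir103 and Mir107 family. Both sums cover only reads placed at 1 locus. Some genes on both sides, such as Mir16-1 and Mir103-2, share an arm with another hairpin, while Mir322 and Mir15a share none. The sums may thus leave out different shares of reads. Mir322 was the highest at 8608 ± 354 CPM, followed by Mir15a at 2333 ± 64.3 CPM. Mir16-1, at 1744 ± 42.9 CPM, stood next to Mir107, and Mir503, the lowest detected, had 96.3 ± 1.59 CPM, above both Mir103 copies. Mir195b had 0 counts, as had Mir6342, Mir6353 and Mir6419, which also carry the shifted seed. Mir1906-1 and Mir1906-2, which share bases 2 to 7 of the Mir107 seed, had 0 counts as well. The listed arm of both Mir1906 copies is found in another hairpin, so their 0 counts do not show absence.

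**Figure D4:**
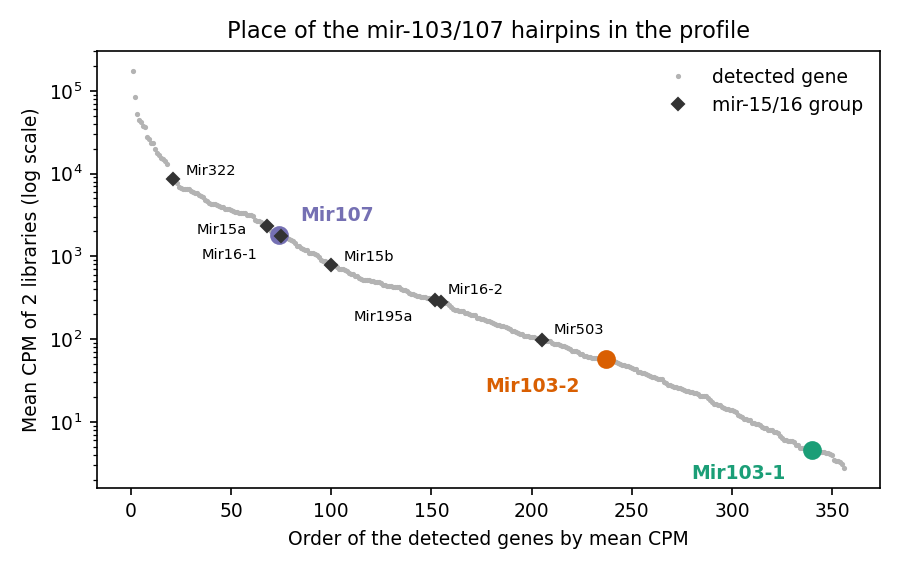
Mean CPM on a log axis of the 356 detected genes in descending order, with the Mir103 and Mir107 hairpins as coloured circles and the mir-15/16 group as black diamonds. Mir107 lies beside Mir16-1, and Mir103-2 and Mir103-1 lie below every detected gene of the mir-15/16 group.

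By distance in the plane of the log2 CPM of both libraries, the 3 genes most like Mir107 were Mir16-1, Mir92-1 at 1854 ± 124 CPM and Mir125b-2 at 1818 ± 59.8 CPM, at distances of 0.066 to 0.091. Those most like Mir103-2 were Mir18b at 58.5 ± 2.29 CPM, Mir30c-1 at 57.0 ± 3.46 and Mir702 at 56.0 ± 2.99, at distances of 0.044 to 0.070. Those most like Mir103-1 were Mir297a-2 at 4.71 ± 0.550 CPM, and Mir7083 and Mir1948, each at 4.55 ± 0.156, at distances of 0.064 to 0.174. With 2 libraries, such likeness is little more than a similar level. The mean of each neighbour lay within the larger SD of the pair, except that of Mir16-1, whose distance below Mir107 was slightly over that SD.

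The libraries were then compared with each other. With trimmed-mean (TMM) library sizes, the log2 ratio of replicate 2 over replicate 1 was 0.05 for Mir107 (exact binomial 95% interval -0.0042 to 0.096), 0.03 for Mir103-2 (-0.25 to 0.32) and 0.16 for Mir103-1 (-0.89 to 1.27). In exact binomial tests, two-sided and with p-values adjusted by Benjamini-Hochberg across the 356 detected genes, 0 of the 3 members passed, with adjusted p = 0.136, 0.914 and 0.914, and 0 had an unadjusted p under 0.05. Of all detected genes 45.2% passed this test, 80 higher and 81 lower in replicate 2. The test takes counting error as the only error and compares these libraries, not conditions. With totals in place of TMM, Mir107 passed at a log2 ratio of 0.06 (adjusted p = 0.0449, range 0.0449 to 1.00 over the alternatives). The median absolute log2 ratio over the detected genes was 0.17, and 12.9% of them had a smaller one than Mir107, 9.83% than Mir103-2 and 47.2% than Mir103-1. The wide interval of Mir103-1 leaves its ratio undetermined at this depth.

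**Figure D5:**
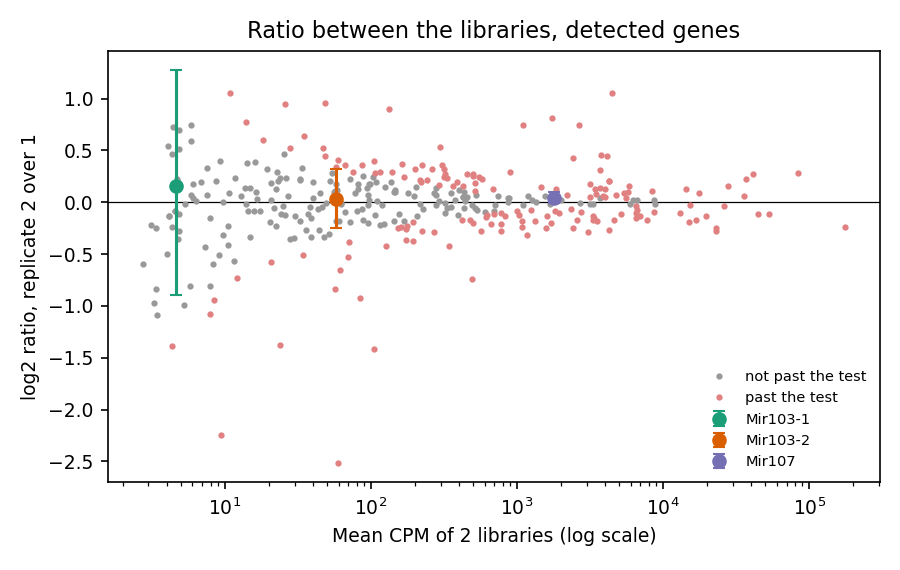
Log2 ratio of replicate 2 over replicate 1 against mean CPM (log axis) for the 356 detected genes, in red where the exact binomial test passed. The Mir103 and Mir107 hairpins, with exact binomial 95% intervals as bars, lie at 0.05, 0.03 and 0.16, and each bar crosses 0.

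Some markers of other cell types had log2 ratios between the libraries larger in size than the point value of any member. Their part in the members' levels was not tested. Mir449a, known from multiciliated cells, had a log2 ratio of 1.05, and the cardiac and slow-muscle Mir208b one of -2.51. The skeletal muscle Mir206 had one of 0.96, in the other direction from Mir208b. The interval of Mir103-1, -0.89 to 1.27, covers the ratios of Mir449a and Mir206. Summed over the fixed markers, choroid plexus and multiciliated genes stood at 4131 and 8239 CPM in replicates 1 and 2, blood at 304 and 218, muscle at 133 and 81.9, mesenchyme at 806 and 523, and epithelium at 145 and 71.9. The blood markers did not move together: Mir451a had 152 and 57.5 CPM, Mir486 10.6 and 8.65, and Mir223 141 and 152. The endothelial Mir126a had 20540 and 18917 CPM. In bulk tissue, fewer cells of a type and less RNA per cell cannot be told apart.

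The other lists place the family among microRNAs of related kinds. Of 8 measured microRNAs tied to lipid and glucose metabolism 7 were detected, with 2 higher and 3 lower in replicate 2 past the test (71.4%, against 45.2% of all detected genes) and a median log2 ratio of 0.11 against 0.01 over all detected genes. Mir143, of mural cells and fat, led that list at 6490 ± 281 CPM, the endocrine Mir375 had 1087 ± 121 CPM, and Mir33, in an intron of the sterol regulator Srebf2, had 96.7 ± 8.81 CPM (SD, n = 2). Mir107 lay above every member of the list but Mir143. In the mir-15/16 group, 1 gene was higher and 3 were lower (57.1%), with a median of -0.02. With 7 genes each, these shares describe few genes. Of the mir-9 copies, the neural microRNA placed downstream of miR-107 in zebrafish, Mir9-3 had 573 ± 65.5 CPM and a log2 ratio of 0.22 and passed the test, and Mir9-2 had 9 and 15 counts. Every arm of both is found in another hairpin, so these counts cannot be taken as the amount of miR-9. Among hairpins with numbered copies, 39 of 110 were detected, 10 higher and 6 lower (41.0%). Among those in introns of protein-coding genes, 138 of 658 were detected, 30 higher and 27 lower (41.3%), with a median log2 ratio of 0.00, and they held 32.8% of the counts. Both shares lie near the 45.2% of all detected genes.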

How the data were processed

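Short RNA of 2 hindbrain libraries was sequenced. The authors deposited raw counts per microRNA gene, aligned to mm10 and counted on GENCODE M4 per the deposited README. The sources used here name no aligner, counter or trimming step. Of 3 count columns, the strand column with 98.1% of the gene counts was used. Summary rows (unmapped 14.0% and 14.6%, multimapping 33.9% and 34.5%, outside features 3.15% and 3.39% of reads) stayed out of library sizes. Names, hosts and hairpins came from GENCODE M21 (1894 of 1973 rows matched), mature sequences from RefSeq.

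TMM and DESeq2 size factors came from edgeR 4.0.16 and DESeq2 1.42.0, exact tests from scipy 1.17.1, folding from ViennaRNA 2.7.2. Stretches were matched on either strand. With 1 group, edgeR's quasi-likelihood test had no contrast, so libraries were compared across all detected genes by exact binomial tests. Detection asked for 10 counts in both libraries. Alternatives changed the strand column, denominator, scaling, test and detection limit. A count of 0 allows up to 3 counts, or 0.998 and 0.665 CPM.

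The genes named are the members, the 3 detected genes nearest to each in log2 CPM, hairpins sharing 20 nt or seed bases, and leading genes of the lists (mir-15/16 group, lipid and glucose metabolism, mir-9 copies, numbered copies, intronic hairpins and tissue markers). Members and lists were chosen with earlier results of these data known. Mir181a, Mir181b, Mir92, Mir125b, Mir194 and Mir26a were named after their values were seen.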

Additional observations from a re-analysis of the deposited data

How the results depend on the processing

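The levels depend on the denominator. Per 1000000 of all reads, summary rows included, Mir103-1 had 2.22, Mir103-2 27.7, Mir107 868 and the family 898. Without the most abundant gene in the denominator they had 5.57, 69.6, 2183 and 2258 CPM. With reads of either strand or TMM library sizes each of these levels moved by less than 1 SD. With 1 library at a time they ran from 4.32 to 4.88, 56.5 to 58.3, 1764 to 1837 and 1825 to 1900 CPM, and the share of Mir107 from 96.66% to 96.67%. The share was 96.67% with either strand.

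The number of genes past the test between the libraries was 161 of 356. With another scaling or either strand it ran from 160 to 170 (44.9% to 47.5% of the genes tested). It was 153 of 717 (21.3%) with at least 1 count in either library and 158 of 290 (54.5%) with at least 50 in both. It fell to 13 in the exact test of edgeR with the BCV (biological coefficient of variation) set to 0.1 and to 5 at the BCV of 0.141 estimated from both libraries, a choice made after seeing the data. By construction these tests add a spread between libraries. No direction of a member reversed in these alternatives. Mir103-1 gave no value with a limit of 50 counts. Leaving out a library leaves no ratio between libraries. Shared stretches of 18, 20 or 22 nt tied each member to the same 2 hairpins. Hairpins with a listed arm that is shared numbered 101, or 111 without the last 2 bases. Depth limits Mir103-1 most.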
